A study of Mus musculus with 5 samples.

Results

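Solute carriers are the membrane proteins that move sugars, amino acids, ions, metals, nucleotides and other small molecules across the plasma membrane and the membranes of organelles. The promoters of their genes were examined for physical contacts in the supporting cells of the mouse gonad. Members were the baits whose name holds a gene symbol beginning with Slc or Slco and a number, on chromosomes 1 to 9, and 1 gene of that name pattern was left out. In the table with the original baits, in which a bait is 1 restriction fragment, 143 of 7674 baits were members, covering 103 genes and 534 of 28991 listed contacts. In the table with the extended baits, in which a bait is a bin of about 5 kb, 204 of 11063 baits were members, covering 142 genes and 1009 of 50644 listed contacts.

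Capture Hi-C ligates crosslinked DNA ends that lie close together and enriches the products that hold a chosen fragment, the bait. The libraries came from Sertoli cells of the fetal testis, sorted from gonads at E13.5 (days of embryonic development) by the Sox9IRES-GFP reporter (3 libraries), and from pre-granulosa cells of the fetal ovary, sorted at the same age by the Enh8-mCherry reporter (2 libraries), each from about 100000 cells. The number of animals behind a library and the element behind the name Enh8 are not given in the sources used here, and contacts of genomic DNA hold no expression by which the sorted cell types could be checked. The question put by the design is which promoter contacts the 2 supporting lineages share and which differ.

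Many solute carriers have known places in the gonad. Sertoli cells are known to take up glucose and to hand lactate to germ cells through monocarboxylate carriers, and granulosa cells are known to supply the oocyte with amino acids and pyruvate. Carriers of the inner mitochondrial membrane, such as the Slc25 family, link the cytosol with energy metabolism, and the Slc30, Slc39 and Slc40 families set the levels of zinc and iron. A promoter contact shows that 2 stretches of DNA lie close together, and it does not show that either stretch acts on the gene.

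Each contact has 1 CHiCAGO score per cell type, which rises as the contact stands further above the background expected at its distance. A cell type was taken to call a contact where its score reached 5, and it was shared where both cell types called the same bait and bin. The labels assign all libraries of a cell type to 1 score column, so there is no spread between libraries and no test of a difference. Both tables score the same libraries, so a pattern seen in both is not an independent repeat. Every listed contact of a member reached 5 in at least 1 cell type, since 0 of the 534 and 0 of the 1009 had both scores under it. Distances run from the bait to the middle of the bin, and a negative one points to lower coordinates.

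Of 150 solute carrier genes with a contact on their own chromosome in either table, 95 were in both, 8 in the original table alone and 47 in the extended table alone, and together they represent 44 families. RefSeq holds 208 genes of this name pattern on chromosomes 1 to 9, all 150 genes were among them, and the other 58, of which 53 are protein coding, were not counted here. Among the 58 is Slc1a2, which was listed with contacts on other chromosomes only. Slc4a1ap was kept because its symbol matches, although it encodes an adaptor protein and not a transporter. Several baits can name promoters of 1 gene. Up to 5 baits of 1 gene were listed, while 76 of the 103 genes in the original table had 1 bait. The 534 listed contacts covered 465 pairs of a gene and a bin, so some bins were reached from more than 1 promoter of the same gene.

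The promoters of the genes on which the results turn are printed as RefSeq gives them for GRCm38.p6, from 250 bases before the start of transcription to 50 after it, on the strand of the gene. Capitals mark a GC box (GGGCGG, read on both strands), a motif of many promoters without a TATA box. Slc2a5 encodes a fructose transporter and Slc2a7 a related hexose transporter, and the 2 genes are neighbours with opposite patterns of contacts. The window of Slc2a5 lies at chr4:150119094-150119393 on the plus strand, and that of Slc2a7 at chr4:150148637-150148936 on the plus strand. Slc44a1, which encodes a choline transporter, is shown because Sertoli cells made all its calls in the original table, from a window at chr4:53440163-53440462 on the plus strand. Slc37a2, which encodes a sugar phosphate exchanger of the endoplasmic reticulum, and Slc25a25, which encodes a mitochondrial carrier of ATP-Mg and phosphate, hold the original baits with the largest Sertoli excess of calls per bait, and are shown with windows at chr9:37255689-37255988 and chr2:32431102-32431401, both on the minus strand.
Slc2a5: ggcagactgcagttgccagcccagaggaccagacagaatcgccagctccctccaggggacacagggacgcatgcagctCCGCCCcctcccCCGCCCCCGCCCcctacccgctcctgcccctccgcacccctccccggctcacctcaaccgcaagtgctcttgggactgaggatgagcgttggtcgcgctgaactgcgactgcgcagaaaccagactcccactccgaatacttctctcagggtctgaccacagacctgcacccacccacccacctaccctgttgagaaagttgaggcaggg
Slc2a7: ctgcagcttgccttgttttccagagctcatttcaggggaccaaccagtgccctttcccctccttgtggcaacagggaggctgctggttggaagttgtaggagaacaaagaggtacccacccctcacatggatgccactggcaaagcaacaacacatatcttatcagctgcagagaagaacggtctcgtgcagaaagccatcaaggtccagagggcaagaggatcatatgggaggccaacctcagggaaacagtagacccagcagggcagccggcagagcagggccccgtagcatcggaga
Slc44a1: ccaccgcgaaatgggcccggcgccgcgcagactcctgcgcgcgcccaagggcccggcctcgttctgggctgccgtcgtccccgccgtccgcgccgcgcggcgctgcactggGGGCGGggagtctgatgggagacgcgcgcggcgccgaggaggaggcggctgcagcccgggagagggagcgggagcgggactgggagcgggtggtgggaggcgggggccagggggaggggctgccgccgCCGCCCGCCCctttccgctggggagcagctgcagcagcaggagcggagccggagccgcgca
Slc37a2: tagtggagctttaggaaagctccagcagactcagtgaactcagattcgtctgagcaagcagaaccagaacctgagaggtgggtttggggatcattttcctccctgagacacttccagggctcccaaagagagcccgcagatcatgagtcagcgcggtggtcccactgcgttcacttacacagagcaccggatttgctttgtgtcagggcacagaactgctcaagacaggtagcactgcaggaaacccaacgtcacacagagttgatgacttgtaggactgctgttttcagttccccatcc
Slc25a25: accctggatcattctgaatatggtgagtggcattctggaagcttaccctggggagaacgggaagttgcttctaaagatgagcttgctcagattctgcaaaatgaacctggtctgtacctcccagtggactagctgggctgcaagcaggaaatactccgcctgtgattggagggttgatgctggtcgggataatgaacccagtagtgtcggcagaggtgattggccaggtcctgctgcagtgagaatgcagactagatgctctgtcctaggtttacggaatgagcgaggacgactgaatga
The windows of Slc2a5 and Slc44a1 each held 3 GC boxes, and the other 3 held 0. None of the 5 windows held the letters TATAAA of the TATA box, the letters AACAAT of the SOX core, the letters AGATAA of the GATA site, the letters AAGGTCA of the NR5A site or a core of the CTCF motif, each searched on both strands. Over the 163 promoters that RefSeq gives for 122 of the listed genes, 56.4% held a GC box, against 35.9% of all 18612 promoters of chromosomes 1 to 9. The TATA box was found in 18 of the 163 and in 13.7% of all, the SOX core in 5.52% against 10.8%, the GATA site in 6.75% against 11.3%, the NR5A site in 5.52% against 4.74% and the CTCF core in 3.68% against 2.43%. The median GC content was 59% in the member promoters and 53% in all. All promoters here come from 15277 genes, with or without a listed contact, while the member promoters come from listed genes only. Whether these gaps belong to solute carriers or to listed genes in general was not tested. The motif matches describe letters in the windows and not bound sites. The RefSeq start lay inside the bait for 67 of the 116 pairs of an original bait and a gene that RefSeq could place, so the printed window is not always the captured fragment. It did lie inside the bait for each of the 5 windows shown.

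Solute carrier promoters had more called contacts in Sertoli cells than in pre-granulosa cells, in proportions close to those of promoters at large. With the original baits, 439 of 534 contacts were called in Sertoli cells, 82.2% (95% Wilson interval 78.7 to 85.2), where 80.2% of all listed contacts of chromosomes 1 to 9 were. In pre-granulosa cells 215 were called, 40.3% (36.2 to 44.5), against 41.5% of all. Both cell types called 120, against a background of 21.7% of all contacts, while 319 were called in Sertoli cells only, where 58.5% of all were, and 95 in pre-granulosa cells only, where 19.8% of all were. There were 2.04 Sertoli calls per pre-granulosa call for solute carriers and 1.93 for all baits. The size of this ratio follows the threshold. At a score of at least 10 it was 4.23 (55 and 13 calls, few in number) where all baits gave 2.55. With the Sertoli threshold raised until both cell types had equal numbers of calls over all baits, it was 1.09 (234 and 215). The shared contacts made up 55.8% of the pre-granulosa calls (49.1 to 62.3), and 52.3% for all baits. Intervals here cover counting error only, and neighbouring bins share signal.

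The extended table gave the same order with a smaller gap. It held 819 Sertoli calls and 536 pre-granulosa calls of members, where 78.7% and 55.9% of all contacts were called, and 346 shared calls, where 34.6% of all were shared. Sertoli cells alone called 473, against 44.1% of all, and pre-granulosa cells alone 190, against 21.3%. The ratio was 1.53 for solute carriers and 1.41 for all baits. Other transport genes, with fewer calls, had lower ratios than solute carriers in both tables. The 95% Wilson intervals of their called shares overlapped those of solute carriers in each table and cell type. The 24 original baits of ABC transporters, which pump with ATP, had 94 Sertoli and 58 pre-granulosa calls, a ratio of 1.62, and the 28 baits of P-type ATPases had 74 and 38, a ratio of 1.95. These ratios were 1.40 and 1.31 with the extended baits. With the original baits, 79.0% of ABC transporter contacts (70.8 to 85.3) were called in Sertoli and 48.7% (39.9 to 57.6) in pre-granulosa cells. For P-type ATPases these shares were 79.6% (70.3 to 86.5) and 40.9% (31.4 to 51.0).

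**Figure D1:**
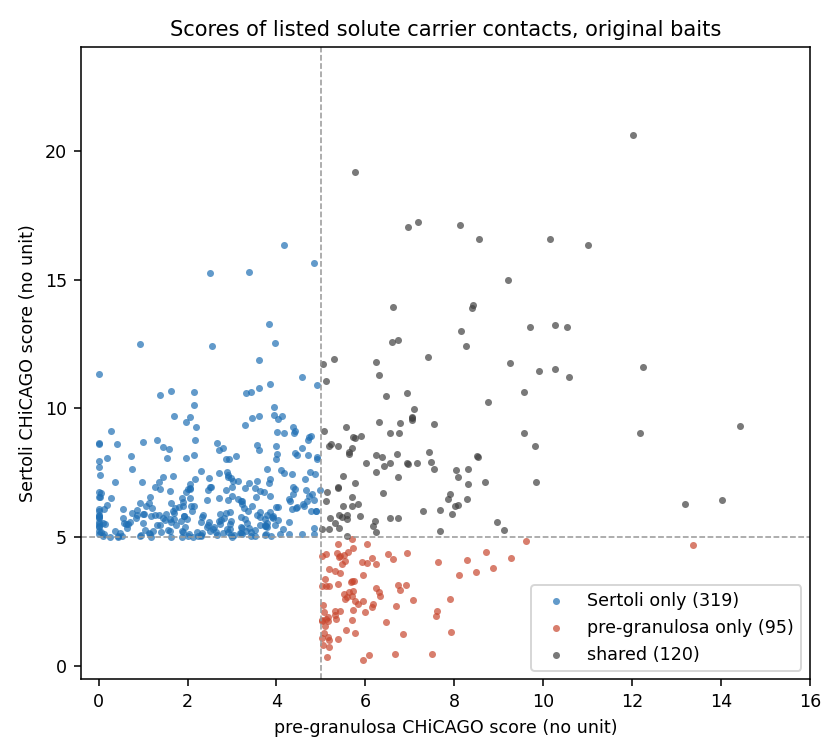
Pre-granulosa score on the x axis against Sertoli score on the y axis, both CHiCAGO scores with no unit, for the 534 listed contacts of solute carriers in the original table. Points are contacts, dashed lines mark the score of 5, and the lower left field is empty because the table lists no contact under 5 in both. The 319 contacts called in Sertoli cells only outnumber the 95 called in pre-granulosa cells only.

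Many of the contacts called in 1 cell type lay near the threshold in the other. Of the 319 called in Sertoli cells only, 129 scored 3 or more in pre-granulosa cells (40.4%, against 33.9% over all baits). Another 18 were listed at 0 (5.64%, against 7.17%), which may stand for a missing value. Of the 95 called in pre-granulosa cells only, 44 scored 3 or more in Sertoli cells (46.3%, against 48.3% over all baits) and 0 were listed at 0. Such contacts near the threshold were thus many for solute carriers and for all baits, with a higher share among the members' Sertoli-only contacts. In the extended table that share was 39.7%, against 39.8% over all baits.

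Sertoli calls of solute carrier promoters had the longer median distance. It was 31.2 kb (95% order-statistic interval 25.6 to 39.1) in Sertoli cells and 19.96 kb (13.8 to 32.6) in pre-granulosa cells, and these intervals overlap. The medians over all baits were 42.6 and 26.0 kb, the latter within the members' interval. Shared contacts of members lay closest, at a median of 13.2 kb (9.41 to 19.96). Over all baits they also lay closest, at 17.3 kb, which this interval holds. Within 10 kb of the bait there were 108 Sertoli and 76 pre-granulosa calls, a ratio of 1.42 where all baits gave 1.44. Between 10 and 50 kb there were 155 and 62, a ratio of 2.50 against 1.79 for all baits. Farther out the ratios were 2.28 against 2.27 up to 100 kb, 2.41 against 2.67 up to 200 kb and 2.00 against 2.67 beyond. The nearest member contact of the extended table lay at 10.1 kb, against 2.51 kb in the original table, so its medians of 43.1 and 36.9 kb (47.95 and 37.9 kb over all baits) leave out the closest range. The other end overlapped the gene's own body in 32.3% of Sertoli calls, 37.7% of pre-granulosa calls and 46.7% of shared calls, against 30.1%, 34.7% and 39.7% over all baits. In the extended table these shares were 20.02%, 21.3% and 24.0% against 21.0%, 22.3% and 23.9%, so the members' excess was not seen there. Where RefSeq gave a strand, 52.5% of Sertoli calls (170 of 324) and 50.7% of pre-granulosa calls (74 of 146) lay upstream of the promoter, against 48.6% and 48.3% over all baits. The members' 95% Wilson intervals, 47.0 to 57.8 and 42.7 to 58.7, hold these shares.

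The calls were spread unevenly over genes. The median gene had 3 listed contacts in the original table and 33 genes had 1, while the 17 genes with 10 or more held 278 of the 534. Both cell types called at least 1 contact for 60 genes (58.3%, against 58.4% of all genes listed), Sertoli cells alone for 28 (27.2%, against 28.4%) and pre-granulosa cells alone for 15 (14.6%, against 13.2%). By bait, 101 of 143 had more Sertoli calls (70.6%, against 65.2% of all baits) and 30 had more pre-granulosa calls (21.0%, against 22.0%). Equal numbers were found for 12 baits (8.39%, against 12.7%). With the extended baits, 122 of 204 baits had more Sertoli calls, against a background of 53.6%, and 39 had more pre-granulosa calls, against 26.4%.

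The 2 tables did not always give a gene the same direction. Of the 95 genes in both, 54 had more Sertoli calls in both tables (56.8%, against 51.7% of all genes in both) and 9 had more pre-granulosa calls in both (9.47%, against 12.2%). Those 9 were Slc24a1, Slc25a20, Slc25a36, Slc2a5, Slc30a4, Slc35d1, Slc38a11, Slc7a2 and Slc9a2. For 6 genes (6.32%, against 12.8%) the direction turned, to more pre-granulosa calls in the extended table for Slc25a44, Slc35a1, Slc50a1 and Slc6a9, and to more Sertoli calls for Slc27a4 and Slc2a9. These genes are named for their counts, which were seen before they were chosen.

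**Figure D2:**
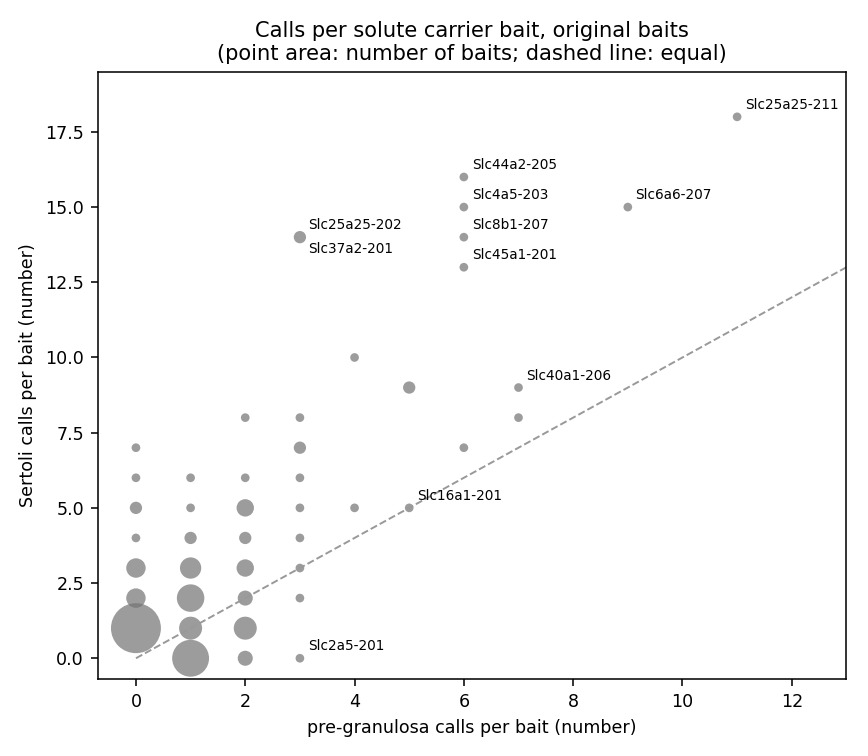
Number of pre-granulosa calls on the x axis against number of Sertoli calls on the y axis for each of the 143 solute carrier baits of the original table. The area of a point gives the number of baits at that place, and the dashed line marks equal numbers. Slc25a25-202 and Slc37a2-201 share a point at 3 and 14 calls, and Slc2a5-201 stands at 3 and 0.

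The transporter classes lay on both sides of the all-bait ratios of Sertoli to pre-granulosa calls, which were 1.93 with the original and 1.41 with the extended baits. Sertoli calls were the more numerous in 10 of 10 classes in each table, as they were over all baits. With the original baits the ratio was highest, among classes with at least 10 calls in each cell type, for carriers of nucleosides, nucleotide sugars and sugar phosphates, with 47 Sertoli and 13 pre-granulosa calls (3.62). It was lowest for carriers of sugars and monocarboxylates, with 53 and 40 calls (1.32), and of metal ions, with 28 and 21 (1.33). Amino acid and peptide carriers had 60 and 28 calls, carriers of inorganic ions and acid-base equivalents 76 and 36, and mitochondrial carriers 82 and 38. Carriers of vitamins, lipids and choline had 50 and 20, and those of organic anions, cations and bile acids 27 and 12. Phosphate, sulfate and dicarboxylate carriers had 9 and 4 calls and vesicular transmitter carriers 7 and 2, which are too few to rank. With the extended baits sugar and monocarboxylate carriers came to near equality, at 76 and 74 calls (1.03), and the highest ratio passed to the organic anion class, at 61 and 28 (2.18). The nucleotide and sugar phosphate class gave 77 and 44 there (1.75). Classes follow the family number and are named for most members, so some hold carriers of other substrates. The sugar and monocarboxylate class holds the urate carrier Slc2a9, the iodide carrier Slc5a5 and the vitamin carrier Slc5a6, and the amino acid class the nucleobase carrier Slc43a3.

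**Figure D3:**
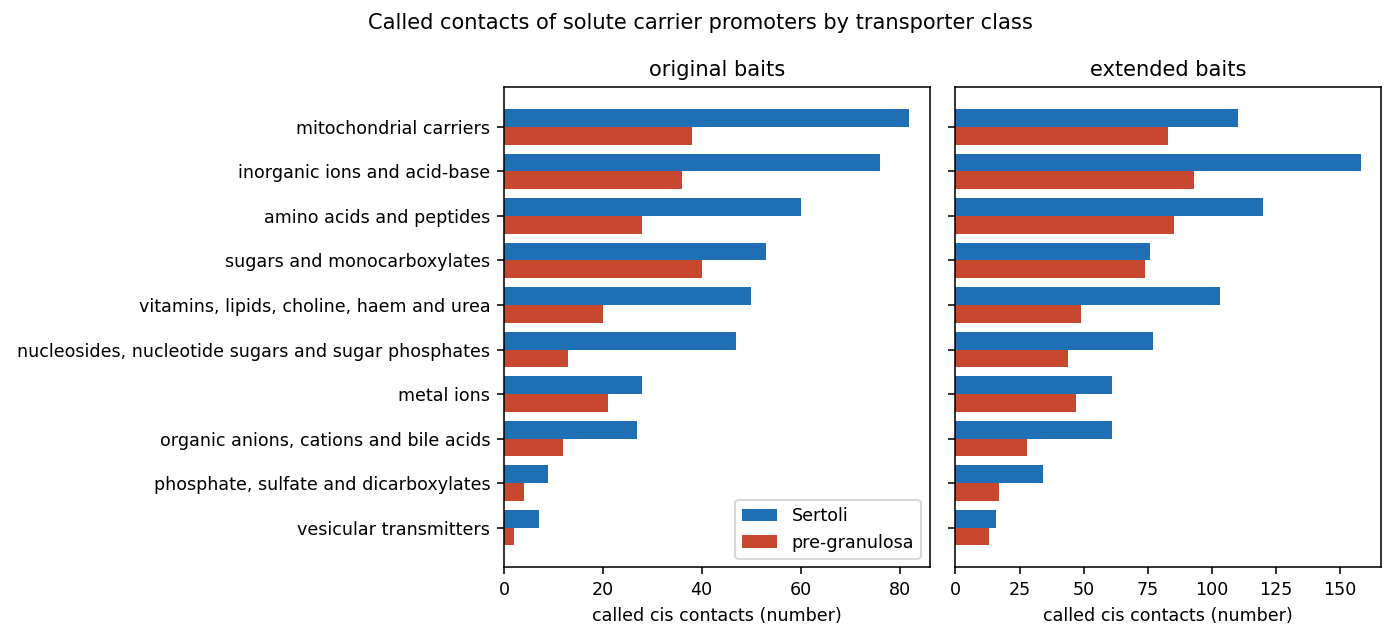
Number of called contacts on the x axis, by transporter class on the y axis, with Sertoli and pre-granulosa calls as bars that start at 0, for the original baits at the left and the extended baits at the right. The Sertoli bar is the longer one in each class, and sugar and monocarboxylate carriers differ least with the extended baits, at 76 and 74 calls.

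Among mitochondrial carriers 1 gene held 49 of the 82 Sertoli calls with the original baits and 44 of 110 with the extended baits. Slc25a25 had 52 listed contacts from 4 baits, reaching 24 bins, with 49 Sertoli calls, 21 pre-granulosa calls and 18 shared. That is 11.2% of all Sertoli calls of solute carriers, and without it the class fell to 33 Sertoli and 17 pre-granulosa calls, while the ratio over all members was 2.01. The bait of the transcript Slc25a25-211 (chromosome 2, 32421524 to 32422263) had 18 Sertoli and 11 pre-granulosa calls, the most Sertoli calls of any original bait of a solute carrier. Its strongest Sertoli contact lay 62.0 kb away, at a score of 19.2 against 5.76, in a bin from 32481236 to 32486530 that overlaps no protein-coding gene. A bin 51.4 kb away went the other way, with 1.34 in Sertoli and 7.92 in pre-granulosa cells. The farthest, 157 kb away in Pip5kl1, scored 6.55 in Sertoli cells but 0 in pre-granulosa cells.

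The 4 promoters of Slc25a25 did not give 1 picture. The bin from 32448232 to 32454082, which overlaps Slc25a25 and Naif1, was listed from all 4 baits. Its Sertoli scores were 13.9, 6.51, 6.85 and 7.88 for the baits Slc25a25-211, Slc25a25-203, Slc25a25-204 and Slc25a25-202, and its pre-granulosa scores were 6.63, 7.86, 4.99 and 6.01. Sertoli cells thus called the bin from each bait, and pre-granulosa cells from 3, with the fourth just under the threshold. The baits Slc25a25-204 and Slc25a25-202 are touching fragments, and they had 10 and 14 Sertoli calls and 4 and 3 pre-granulosa calls. At the bin 4.41 kb from Slc25a25-202 the scores were 15.0 and 9.21, and at the bin 40.0 kb away they were 8.17 and 0.72. In the extended table the 2 promoter bins of the gene contacted each other at 26.6 in Sertoli and 23.1 in pre-granulosa cells, and at 36.5 and 18.9 when read from the other end.

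Slc25a22, the mitochondrial glutamate carrier, had 12 Sertoli and 3 pre-granulosa calls from 3 original baits. The bin 15.0 kb from Slc25a22-214 towards lower coordinates scored 9.34 in Sertoli and 14.4 in pre-granulosa cells, the highest pre-granulosa score of a member in the original table. With the extended baits its contact with the promoters of Pidd1 and Rplp2, 10.6 kb away, reached 46.7 and 26.1. Slc25a15, the ornithine carrier, contacted 5 bins between 182 and 209 kb on 1 side. Of them 3 were shared, with 11.4 in Sertoli and 9.90 in pre-granulosa cells at the outermost bin and 6.30 and 13.2 at the next, in Vps36. Slc25a44, which carries branched-chain amino acids into mitochondria, showed both directions from 1 bait. A bin 49.4 kb away scored 10.9 and 4.91, and a bin 97.8 kb away scored 0.47 and 6.67.

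Among sugar and monocarboxylate carriers, Slc2a5-201 (chromosome 4, 150118881 to 150119412) had 3 pre-granulosa calls and 0 Sertoli calls. They lay at -7.33 kb (8.70 in pre-granulosa and 4.43 in Sertoli cells), at 26.3 kb (6.08 and 0.46) and at 102 kb (5.94 and 0.24). The nearest of these was close to the threshold in Sertoli cells, and the other 2 were near 0. With its extended bait the gene had 4 pre-granulosa calls and 0 Sertoli calls, among them the promoter bin of Eno1, a glycolytic enzyme, 119 kb away, at 6.79 and 3.94.

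The bin 26.3 kb from Slc2a5, from 150142828 to 150148133 within the Slc2a5 gene, was also contacted from Slc2a7-201 (150148857 to 150149560), which lies next to it. From Slc2a7 the bin scored 17.2 in Sertoli and 7.18 in pre-granulosa cells. The other 2 contacts of Slc2a7 were called in Sertoli cells only, at 6.92 against 3.51 and at 6.14 against 1.71. Read from the one promoter, the bin was therefore higher in Sertoli cells, and read from the other it was higher in pre-granulosa cells. In the extended table the bins of the 2 promoters contacted each other, 33.8 kb apart, at 5.20 in pre-granulosa and 1.42 in Sertoli cells.

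Slc2a9, a urate transporter with 4 original baits, had 5 pre-granulosa and 3 Sertoli calls, and 0 of them were shared. Slc2a9-201 contacted the bin 3.63 kb away at 8.50 in pre-granulosa and 3.66 in Sertoli cells, while Slc2a9-205 contacted the same bin, 14.0 kb from it, at 2.97 and 7.32. The extended table gave 13 pre-granulosa and 14 Sertoli calls with 8 shared, so the absence of shared calls was not seen there. Its promoter bins contacted each other in both cell types, at 28.3 in pre-granulosa and 18.6 in Sertoli cells over 20.8 kb, and at 21.4 and 23.4 over 10.1 kb.

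Slc16a1, the lactate and pyruvate carrier, had an even balance. From Slc16a1-201 (chromosome 3, 104637865 to 104639595) both cell types called 5 contacts, and 4 were shared. The shared ones lay at -124 kb (7.34 in Sertoli and 8.08 in pre-granulosa cells), -96.4 kb (9.68 and 7.05), -4.94 kb (5.72 and 5.59) and 35.8 kb (7.15 and 8.69). A bin at -86.2 kb was called in Sertoli cells only, at 5.22 against 1.90, and a bin at 46.1 kb in pre-granulosa cells only, at 8.28 against 4.14. With the extended bait there were 3 Sertoli and 7 pre-granulosa calls, and the contact with the promoter bin of Lrig2, 128 kb away, scored 4.02 and 11.3. Slc16a4, another member of the family, had 8 Sertoli and 7 pre-granulosa calls, 4 of them shared, and its contact at -57.2 kb scored 9.62 in Sertoli and 3.44 in pre-granulosa cells.

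Slc45a1, a proton-coupled sugar transporter, contacted a stretch about 200 to 250 kb from its promoter, across Errfi1 and up to Park7. Touching bins there differed in which cell type scored higher. At 228.5 kb the scores were 9.06 in Sertoli and 12.2 in pre-granulosa cells, at 234 kb 2.13 and 5.31, at 239.8 kb 13.3 and 3.84, at 245.9 kb 4.87 and 9.61, and at 251.6 kb 11.3 and 0. The last was the largest difference towards Sertoli cells of any member contact in the original table, on the asinh scale. In the extended table that bin again scored 9.08 and 0, yet the bin beyond it, which holds the Park7 promoters, was shared at 23.1 and 8.49, as was that of Errfi1 at 11.9 and 14.2.

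Of the glucose carriers proper, Slc2a1 and Slc2a3 were listed in the extended table only. Slc2a1 had 2 pre-granulosa calls, at -12.0 kb (5.17 against 1.57 in Sertoli cells) and at the promoter bin of Ermap (6.49 against 3.73), and no Sertoli call. Slc2a3-201 contacted the promoter bin of Nanog, a pluripotency factor, 32.0 kb away, at 7.92 in Sertoli and 1.08 in pre-granulosa cells. Slc2a3-202 contacted the promoter bin of Necap1 in both, at 11.3 and 8.27.

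**Figure D4:**
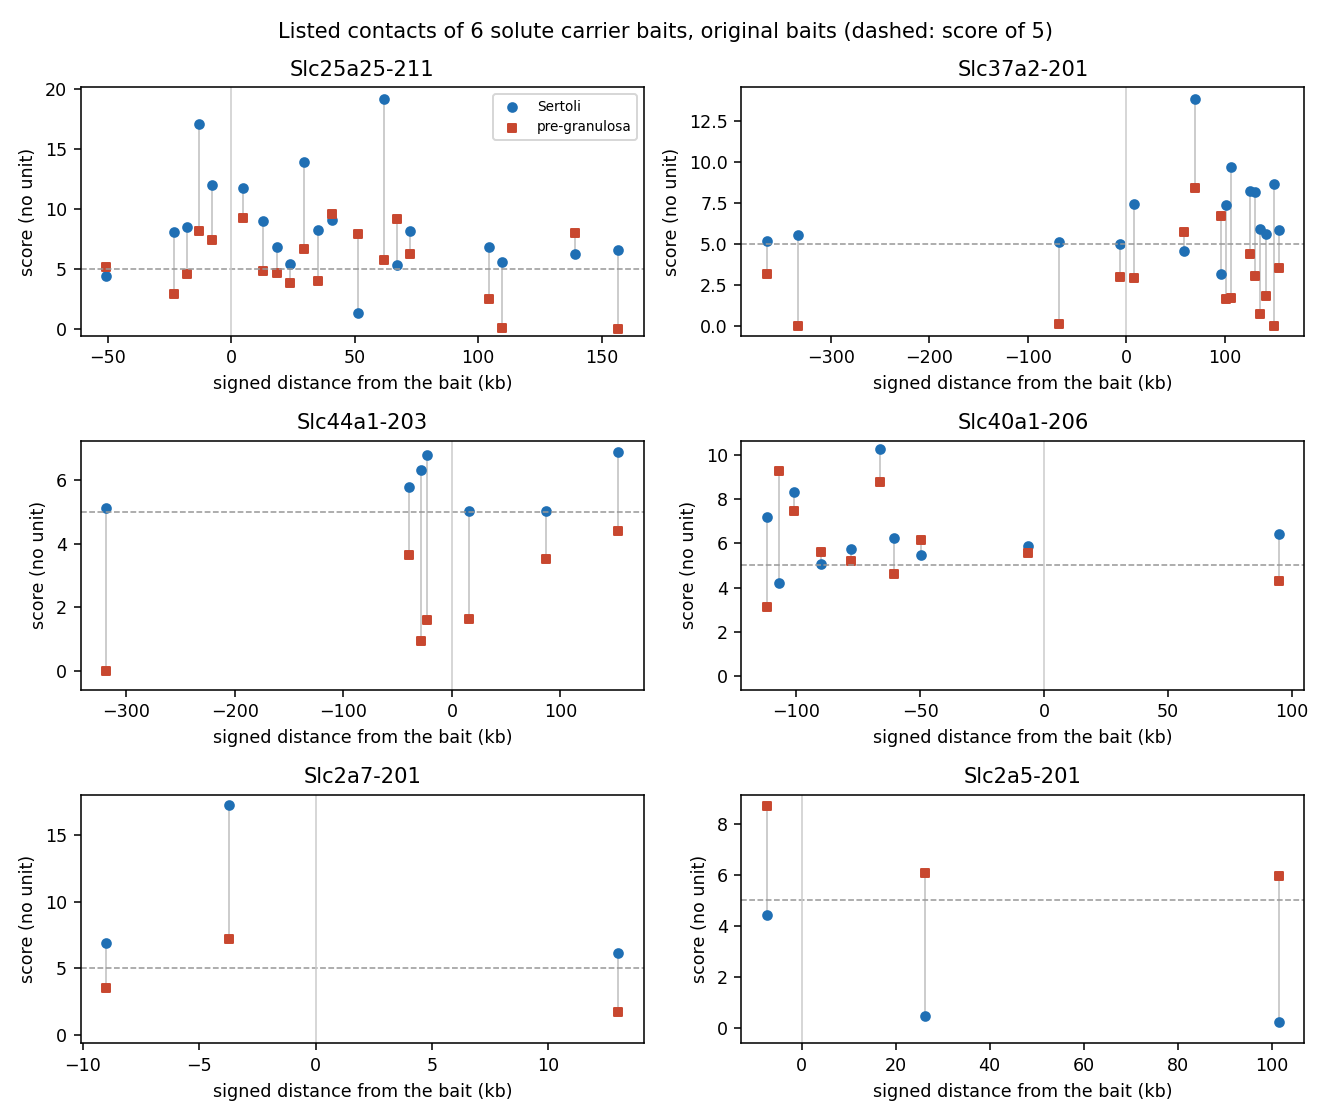
Signed distance from the bait in kb on the x axis and CHiCAGO score with no unit on the y axis for the listed contacts of 6 original baits. Circles are Sertoli scores, squares are pre-granulosa scores, a grey line joins the scores of 1 contact, and the dashed line marks 5. All 3 pre-granulosa points of Slc2a5-201 lie above the Sertoli points, while the Sertoli points lie above at each contact of Slc44a1-203.

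Amino acid carriers had 60 Sertoli and 28 pre-granulosa calls in the original table, and Slc6a6 had the most. From Slc6a6-207 (chromosome 6, 91701331 to 91701962), a promoter of the taurine transporter, 15 contacts were called in Sertoli and 9 in pre-granulosa cells. Within 36 kb both cell types called the bins at -14.7, -9.34, -4.18, 14.3, 19.4 and 35.6 kb, with Sertoli scores up to 16.6 and pre-granulosa scores up to 9.57. From 97 to 183 kb below the bait the calls parted. The bin at -129.5 kb scored 8.62 in Sertoli cells but 0 in pre-granulosa cells, and the bin at -97.1 kb scored 3.56 and 8.11.

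Slc38a3, a glutamine transporter, had 15 Sertoli and 8 pre-granulosa calls from 3 original baits, with 7 shared. In the extended table its promoter bin contacted that of Sema3b, 58.9 kb away, at 21.0 in Sertoli and 29.9 in pre-granulosa cells. That was the highest pre-granulosa score of any member contact with another gene's promoter in that table. Slc6a9, a glycine transporter, had 8 Sertoli calls and 0 pre-granulosa calls from its 4 original baits, with pre-granulosa scores from 0.47 to 4.84. With the extended baits it had 12 Sertoli and 15 pre-granulosa calls, 9 of them shared. There its promoter bins contacted the promoters of Ccdc24 at 18.0 and 14.1. Slc6a13, a GABA transporter, had a contact among the 5 with the largest differences towards pre-granulosa cells, at 213 kb, with 7.49 against 0.48.

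The key amino acid carriers had few contacts, all from the extended table. Slc7a5, a carrier of large neutral amino acids, had 1 call in each cell type, at 5.98 in pre-granulosa cells against 0.32, and at 5.31 in Sertoli cells against 3.18. Slc1a5, a glutamine transporter, had 2 pre-granulosa calls, at the promoter bins of Ap2s1 (7.22 against 2.47) and Strn4 (5.31 against 1.32). Slc7a11, the cystine carrier, had no contact on its own chromosome listed in either table.

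Among carriers of inorganic ions, Slc8b1 and Slc4a5 had the most Sertoli calls with the original baits, and Slc4a2, a chloride and bicarbonate exchanger, with the extended baits (25 Sertoli and 18 pre-granulosa calls). Slc4a5-203 (chromosome 6, 83219514 to 83219970), of a sodium bicarbonate cotransporter, had 15 Sertoli and 6 pre-granulosa calls, 3 of them shared. Between 33 and 66 kb, within the gene, the Sertoli scores reached 12.4, 16.4, 10.5 and 10.9 at 4 bins whose pre-granulosa scores were 2.54, 4.18, 1.39 and 3.85. Another bin of this stretch, at 38.9 kb, was called in pre-granulosa cells, at the bait's highest pre-granulosa score of 7.31. Farther on in the gene, the bins at 77.0 and 82.2 kb were called in pre-granulosa cells only, at 5.94 and 7.08 against 3.54 and 2.57. Slc8b1, the mitochondrial sodium and calcium exchanger, had 19 Sertoli and 8 pre-granulosa calls from 2 baits. Its strongest contact lay 96.0 kb away over Iqcd and Rita1, at 12.6 and 6.61 from Slc8b1-207 and at 6.74 and 6.39 from Slc8b1-203.

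The other key carriers were also read from the extended table. Slc19a2, the thiamine transporter, had a shared contact with the promoter bin of Blzf1 and Nme7, 54.9 kb away, at 15.0 in Sertoli and 11.1 in pre-granulosa cells. Slc25a4, the mitochondrial exchanger of ADP and ATP, had 2 calls, both in pre-granulosa cells, at the promoter bins of Lrp2bp and Ankrd37 (5.50 against 1.83) and of Helt (5.97 against 4.23). Slc20a1, a phosphate importer, was split, with the promoter bin of Chchd5 called in pre-granulosa cells (6.24 against 2.78) and a bin 10.4 kb away in Sertoli cells (7.10 against 2.45).

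The longest contact of a solute carrier in the original table was that of an ion carrier. Slc12a1, the sodium potassium chloride cotransporter of the kidney, had it at -1054 kb in Sema6d, with 7.74 in Sertoli and 0 in pre-granulosa cells. It was also listed with the extended baits, at 6.37 and 0. In that table Slc5a9, a sodium-coupled sugar transporter, had a farther one, at 2408 kb, with 5.23 and 0. Slc24a3, an exchanger of sodium, potassium and calcium, contacted the far end of its own gene, 350.4 kb from Slc24a3-202, at 8.13 in Sertoli and 8.52 in pre-granulosa cells. It was the only shared call among the 5 farthest of the original table, and in the extended table it was shared at 6.94 and 8.21. The bin 340.0 kb away scored 6.10 and 0.

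Among metal carriers the contacts of Slc40a1, the iron exporter, were largely common to both cell types. Slc40a1-206 (chromosome 1, 45926454 to 45926826) had 9 Sertoli and 7 pre-granulosa calls, and 6 were shared. The shared ones ran along one side, from -6.37 to -100.8 kb. At -66.1 kb the scores were 10.3 in Sertoli and 8.75 in pre-granulosa cells, and at -100.8 kb they were 8.31 and 7.43. At -107 kb pre-granulosa cells scored 9.27 and Sertoli cells 4.18. With the extended bait 16 Sertoli, 13 pre-granulosa and 11 shared calls were found. The bin of the Wdr75-209 promoter scored 11.4 in Sertoli and 18.4 in pre-granulosa cells. Shared contacts of the extended bait lay on the other side too, at 10.3 kb (7.72 and 5.53) and at 95.8 kb (8.69 and 5.02).

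Slc30a1, a zinc exporter, contacted 5 touching bins from 62.2 to 83.4 kb on one side, by Nek2. Sertoli cells called all 5, and pre-granulosa cells 1. The strongest scored 15.3 in Sertoli and 2.49 in pre-granulosa cells, and the shared one, next to it, 8.22 and 6.72. With the extended bait the strongest was again higher in Sertoli cells, at 17.6 and 4.01, but the numbers of calls were equal, at 4 and 4. Slc31a1, the copper importer, contacted bins in Alad at 120.3 and 131 kb in Sertoli cells (9.72 and 8.09, against 3.61 and 0.19) and the bin between them in pre-granulosa cells (5.64 against 2.88). Slc39a8, an importer of zinc and manganese, had no contact on its own chromosome listed in either table.

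Among carriers of nucleotides and sugar phosphates, Slc37a2-201 (chromosome 9, 37254977 to 37255846) had 14 Sertoli and 3 pre-granulosa calls, with 1 shared. The shared contact, 69.2 kb away in Ccdc15, was also the strongest, at 13.9 in Sertoli and 8.41 in pre-granulosa cells. Beyond it, from 101 to 155 kb, 8 bins across Hepacam and Robo4 were called in Sertoli cells only, with Sertoli scores from 5.64 to 9.71 and pre-granulosa scores from 0 to 4.41. With the extended bait the gene had 10 Sertoli and 5 pre-granulosa calls. There the bin of the Hepacam promoter was shared at 7.77 and 5.86. The bin of the Ccdc15 promoter, 96.7 kb away, was called in pre-granulosa cells only, at 9.57 against 4.54. The highest Sertoli score of the extended bait, 13.1, lay elsewhere, at 70.3 kb.

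Choline carriers of the Slc44 family had 28 Sertoli and 6 pre-granulosa calls in the original table and 33 and 7 in the extended one. Slc44a1 had 12 calls in Sertoli cells and 0 in the other cell type from its pair of original baits, with Sertoli scores from 5.01 to 7.97 and pre-granulosa scores from 0 to 4.41. The bait Slc44a1-202 lies inside the gene and not at a RefSeq start. Other baits named here also lie away from one, such as Slc4a5-203 by 17405 bases and Slc44a2-205 by 9845 bases. The extended table gave 13 and 1 calls for Slc44a1, the latter shared at 6.56 and 5.25. The 2 promoter bins of Slc44a1 contacted each other at 7.78 and 3.51. Slc44a2-205 (chromosome 9, 21347673 to 21348568) had 16 Sertoli and 6 pre-granulosa calls. Its bin at -6.71 kb was shared at 13.2 and 10.5, and its bin at -96.3 kb scored 12.5 in Sertoli and 0.93 in pre-granulosa cells.

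Slc51b-201, of the beta subunit of a bile acid exporter, had 9 Sertoli and 5 pre-granulosa calls, and its bin at -4.11 kb was shared at 16.6 and 10.2. Slc46a2-201 had 1 listed contact, 4.42 kb away in its own gene, which was the strongest shared contact of a member in the original table, at 20.6 in Sertoli and 12.0 in pre-granulosa cells. Slc34a3-201, of a phosphate cotransporter of the kidney, had 3 Sertoli calls and 1 pre-granulosa call in the original table. Its extended bait, which also holds the promoter of Rnf224, had 26 and 11, all 11 of them shared. Slc17a7, which loads glutamate into synaptic vesicles, had 4 Sertoli calls and 1 pre-granulosa call from Slc17a7-201, with 10.1 against 3.95 at the strongest, and 7 and 7 calls in the extended table. Fatty acid carrier Slc27a4 and zinc carrier Slc30a2 each had 2 pre-granulosa calls and 0 Sertoli calls from 1 original bait, at pre-granulosa scores of 5.02 to 6.03. With the extended baits Slc27a4 was called 2 times in Sertoli and 1 time in pre-granulosa cells, and Slc30a2 2 times in each.

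Contacts between solute carrier promoters could be read in the extended table, where bins at both ends can carry a bait name. Named promoter bins made up 55.7% of Sertoli calls and 61.0% of pre-granulosa calls of members, against 55.2% and 61.0% over all baits. In 73 listed contacts both ends were members, forming 44 pairs of bins, of which 36 joined promoters of 1 gene (22 genes) and 8 joined different genes. Of the 73, 42 were called in both cell types (57.5%), 21 in Sertoli cells only (28.8%) and 10 in pre-granulosa cells only (13.7%). Over all contacts with a named promoter bin these shares were 41.3%, 37.9% and 20.9%. Pairs listed from both ends count as 2 contacts, and most pairs join promoters of 1 gene. Scores from the 2 ends differed. Of 29 pairs listed from both ends, 20 had the same call from each.

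The pairs of different genes were mostly seen in 1 cell type. Slc24a5 and Slc12a1, an exchanger of pigment cells and a kidney cotransporter, contacted each other over 85.5 kb in both cell types, at 18.1 in Sertoli and 11.6 in pre-granulosa cells from Slc24a5, and at 5.93 and 5.91 from Slc12a1. Slc12a5 and Slc35c2 were joined over 316 kb at 7.63 in Sertoli and 0 in pre-granulosa cells, and Slc27a3 and Slc39a1 over 145 kb at 5.28 and 0. Slc9a4 and Slc9a2, both sodium proton exchangers, scored 6.28 and 3.88, Slc5a6 (from a bait that also names Atraid) and Slc30a3 5.17 and 1.83, and Slc22a13 and Slc22a14 5.21 and 1.62. The pairs called in pre-granulosa cells only were Slc6a12 with Slc6a13, at 5.61 against 3.93, and Slc2a7 with Slc2a5. Each of these 7 was listed from 1 end only.

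Promoters of 1 gene were joined in both cell types at Slc23a4 (up to 23.8 in Sertoli and 20.2 in pre-granulosa cells) and Slc26a5 (15.5 and 14.9). Slc15a4, a lysosomal carrier of histidine and peptides, differed, with 16.3 and 12.3 in Sertoli cells at its 2 pairs and 3.24 and 1.79 in pre-granulosa cells. The adaptor gene Slc4a1ap had pairs of both kinds. The pair 10.9 kb apart was called in pre-granulosa cells only, with 11.4 against 4.95 in Sertoli cells, and 12.9 against 3.77 from the other end. The pair 16.5 kb apart was called in Sertoli cells only, with 6.83 against 4.76.

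**Figure D5:**
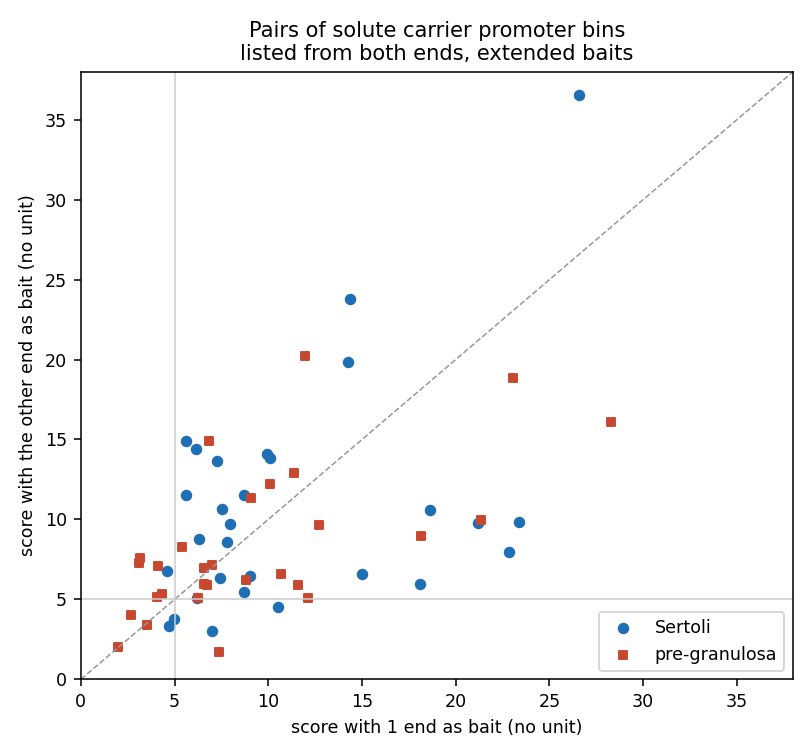
CHiCAGO score with 1 end as bait on the x axis and with the other end as bait on the y axis, with no unit, for the 29 pairs of solute carrier promoter bins listed from both ends in the extended table. Circles are Sertoli and squares pre-granulosa scores, the dashed line marks equal scores, and grey lines mark 5. Points lie off the dashed line on both sides, such as Slc25a25 at 26.6 and 36.5 in Sertoli cells.

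Contacts with promoters of other genes named 359 genes. By the lower of the scores, the strongest shared contacts were those of Slc25a22 with Pidd1 and Rplp2, of Slc4a2 with Abcb8 (22.8 in Sertoli and 23.0 in pre-granulosa cells) and of Slc34a3 with Rnf208 (40.4 and 22.6). On the asinh scale, and leaving out contacts between solute carriers, differences towards Sertoli cells were largest for Slc43a1 with Tfpi, an inhibitor of coagulation, over 367 kb (10.3 and 0.086), and Slc17a6 with Svip (7.25 and 0). On the same scale, those towards pre-granulosa cells were largest for Slc30a3 with Eif2b4 and Snx17 (0 and 5.99) and Slc39a13 with Acp2 (0 and 5.41).

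Some bins were reached from promoters of several solute carrier genes, and the cell types could differ between them. The promoter bin of P2rx3 and Ssrp1 was contacted from Slc43a1, a carrier of neutral amino acids, at 8.76 in Sertoli and 4.19 in pre-granulosa cells. From Slc43a3, a carrier of nucleobases, the same bin scored 1.73 and 11.8. Between Slc9a4 and Slc9a2 the bin from 40650997 to 40656611 on chromosome 1 scored 7.32 in Sertoli and 2.49 in pre-granulosa cells from Slc9a4, and 1.13 and 5.16 from Slc9a2. With the extended baits it kept this pattern, at 7.44 and 2.44 and at 1.88 and 7.42. In the extended table the bin of the Dkkl1 promoters was reached from Slc17a7 (13.7 and 12.8), Slc6a16 and Slc6a21, a cluster on chromosome 7. From Slc6a21-206 it was shared too, at 9.23 and 9.22. It was called in Sertoli cells only from Slc6a16-203 (7.94 and 2.53), Slc6a16-201 (5.06 and 1.94) and Slc6a21-204 (5.75 and 3.45). In the original table a partly different bin over Dkkl1 was not shared. It was called in Sertoli cells only from Slc17a7-201 (7.19 and 3.03) and in pre-granulosa cells only from Slc6a21-206 (4.39 and 5.36).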

How the data were processed

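Capture Hi-C of sorted Sertoli and pre-granulosa cells was analysed from 2 deposited tables. Each deposited table holds 1 CHiCAGO score per cell type, and the labels' sample descriptions name that 1 column for every library of the cell type. The score is named in the deposited tables, and how libraries were combined, the caller's version and its settings are not given in the sources used here. The build is mm10, per the submitters' processing notes, and DpnII cut the chromatin, per the labels' protocols. Depth and spread between libraries are unknown.

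Cis contacts of baits on chromosomes 1 to 9 were read with pandas 2.3.3 in Python 3.11.15. Calls needed a score of at least 5. Shares have 95% Wilson intervals and medians 95% binomial order-statistic intervals. Genes were grouped into 10 transport classes by family number. Overlapping genes and promoter sequences came from RefSeq tables of GRCm38.p6, the same primary assembly as mm10. Counting was checked on simulated tables, and 20 of 20 were recovered.

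The genes named are 12 key transporters, the 5 baits per cell type whose calls most exceeded those of the other, the 5 contacts with the largest difference of asinh scores per direction, the 5 strongest shared and the 5 farthest contacts, the bait with most calls per class, contacts between members, and bins reached by several members. Further contacts of these and of other members, and those with other promoters, were chosen after their values were seen. Members and lists were chosen with earlier results of these data known. The 6 processing alternatives were planned, and contacts between chromosomes were left out of the comparisons. The result of 1 pair of promoters is not reported here.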

Additional observations from a re-analysis of the deposited data

Results flagged for a closer look

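Contacts between chromosomes lie outside the comparisons above, and solute carriers had 5 of them in the original table and 4 in the extended one. Pre-granulosa cells called 4 of the 5 and Sertoli cells 1, where all baits of chromosomes 1 to 9 had 235 and 35. Slc1a2-209, a promoter of a glutamate transporter, scored 6.33 in pre-granulosa cells at a bin on chromosome 15 and at another on chromosome 16, and 5.25 in Sertoli cells at a bin on chromosome 5. Slc23a2-203, of a vitamin C transporter, scored 7.67 in pre-granulosa cells at a bin on chromosome X, and Slco1a4-203 scored 5.11 in pre-granulosa cells at a bin on chromosome 2. Each was listed at 0 in the other cell type. All 4 pre-granulosa contacts were also listed with the extended baits, at 6.44, 6.44, 5.60 and 5.01. There is no control sample for such contacts.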

How the results depend on the processing

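No paired analysis was possible because the labels assign all libraries of a cell type to 1 score column, and for the same reason no library could be left out. Of 26 values under 6 other settings, 14 stayed within the limits set by 1.5 times the count or by the interval of the share or median. Of these, 7 could not change: no original bait names another gene, and equal numbers keep the pre-granulosa calls as they are. A score of at least 10 left 55 Sertoli and 13 pre-granulosa calls, at medians of 19.4 and 7.82 kb. The extended baits gave 819 and 536 calls, 64.6% of the pre-granulosa calls shared, and medians of 43.1 and 36.9 kb. Equal numbers of calls over all baits, 12025 for each cell type (a Sertoli score of at least 6.42), left 234 Sertoli calls beside 215 pre-granulosa calls and 42.8% shared. Counting a touching bin as shared raised the share to 67.9%. Sertoli calls stayed the more numerous and the median Sertoli distance the longer under each setting that gave both values. Joining touching bins gave 320 and 188 contacts. Scores at 0 and the unknown depth limit what a missing call means.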
